A study of Homo sapiens with 6 samples.

Results

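Transcripts of SNAI1, SNAI2, TWIST1, TWIST2, ZEB1 and ZEB2, the core transcription factors of the epithelial to mesenchymal transition, were compared in human LX-2 cells with and without IGFBP-7. The genes were chosen by symbol as the 3 paralog pairs that are classically named as drivers of this transition, and all 6 were among the 16569 genes of the deposited expression table. LX-2 is an established, immortalised human hepatic stellate cell line, labelled wild type, and IGFBP-7 is a secreted glycoprotein related to the binding proteins of insulin-like growth factors. Both groups were grown in medium with 2% fetal bovine serum, kept without serum for 18 h and then exposed for 24 h either to phosphate-buffered saline (PBS, 3 libraries) or to 100 ng/mL IGFBP-7 (3 libraries). Polyadenylated RNA was sequenced from 1 cell line, at 1 dose and 1 time, and the labels do not say whether the libraries came from separate cultures, so the p-values measure only the spread between these libraries. The comparison asks how IGFBP-7 alters these stellate cells, and it measures transcripts, not proteins or cell shape.

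SNAI1 (Snail) and SNAI2 (Slug) are zinc finger repressors, ZEB1 and ZEB2 are large repressors with zinc finger clusters around a homeodomain, and TWIST1 and TWIST2 are basic helix-loop-helix (bHLH) factors that bind DNA as dimers. The SNAI and ZEB proteins recognise E-box sequences of the form CAGGTG in promoters of epithelial adhesion genes such as CDH1 and recruit histone-modifying corepressors there. Stellate cells are already mesenchymal, and in the liver these factors are known from their activation into matrix-producing myofibroblast-like cells.

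The libraries were deep enough to measure all 6 genes well. The deposited values are counts divided by library size factors, called normalized counts here, and whole reads could be recovered from them (40599380 to 43537923 per PBS library and 45242993 to 55479940 per IGFBP-7 library). The lowest value of any of the 6 genes in any library was 132 fragments. Of the 11872 genes whose mean reached 10 normalized counts, 60.6% passed limma's test at an adjusted p under 0.05, with 31.3% higher and 29.2% lower with IGFBP-7. Single calls therefore say little by themselves, and the sizes of the changes carry most of the information. Stellate transcripts differed widely in level. COL1A1, PDGFRB and ACTA2 were abundant, at means of 49614, 3055 and 932 normalized counts in PBS. LUM, RGS5, PDGFRA, HGF and DCN were lower, at means of 354, 195, 61.9, 47.8 and 33.6 in PBS. The filament gene DES was listed at 0 in 5 of the 6 libraries. The summed level of the 13 stellate markers in the table was 89437 to 94784 in PBS and 273285 to 298295 with IGFBP-7, most of it COL1A1 and SPARC. Of the 12 stellate markers tested 7 rose, 2 fell (THY1 and LUM, by 0.27 and 1.68 on the log2 scale) and 3 did not pass. The median of these 12 was 0.43. Whether more cells of a kind or more RNA per cell made a difference cannot be told apart in bulk RNA.

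All 6 factors passed the test, 4 higher (SNAI1, SNAI2, TWIST2 and ZEB1) and 2 lower (TWIST1 and ZEB2), and in none of them did the 3 IGFBP-7 libraries overlap the 3 PBS libraries. Such separation was found in 63.5% of all tested genes, with IGFBP-7 higher in 32.9% and lower in 30.6%. Their sizes were very unequal. SNAI1 lay among the most strongly changed genes of these cells, SNAI2 followed, and the other 4 changed by less than 2-fold. SNAI1 rose more than SNAI2, and in the TWIST and ZEB pairs 1 paralog rose while the other fell.

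**Figure D1:**
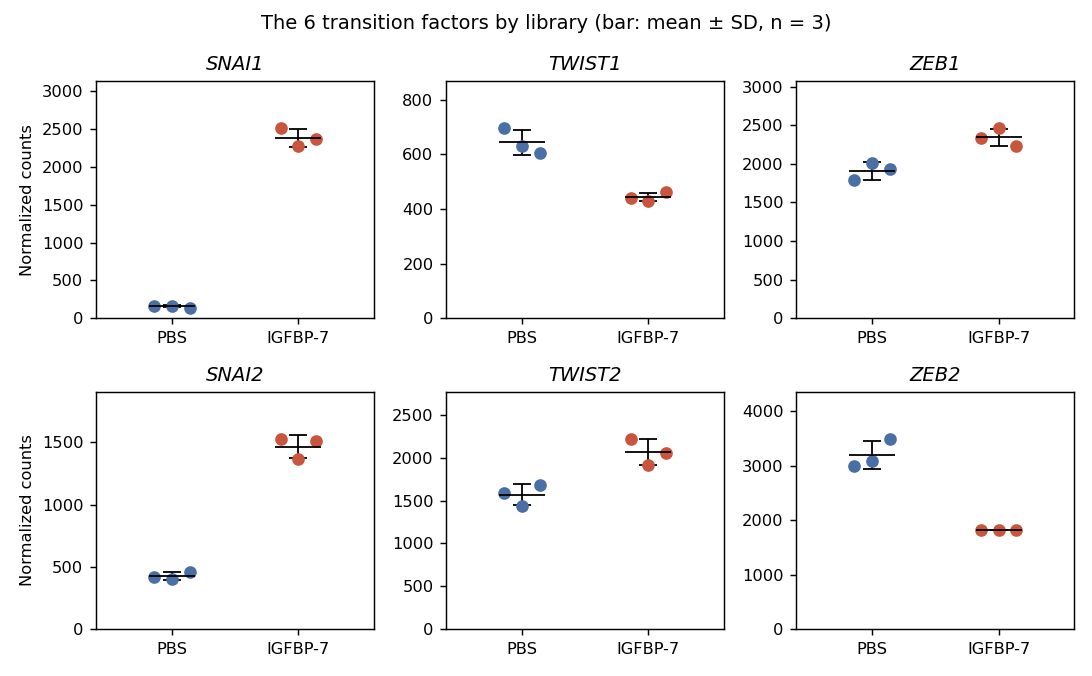
Normalized counts of the 6 factors, 1 panel per gene with its own axis from 0, with 3 PBS (blue) and 3 IGFBP-7 (red) libraries as points and the mean ± SD as black bars. SNAI1 went from 141 to 167 in PBS to 2273 to 2507 with IGFBP-7, and ZEB2 and TWIST1 lay lower in all 3 IGFBP-7 libraries.

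SNAI1 (ENSG00000124216), a direct repressor of CDH1 and an early responder in many models of the transition, was at 161, 167 and 141 normalized counts in the PBS libraries and at 2507, 2273 and 2371 in the IGFBP-7 libraries. Every treated library stood far above every control library. The mean rose from 156 ± 13.5 to 2384 ± 117 (SD, n = 3 and 3), a log2 change of 3.93 ± 0.10 (SE) or 15.2-fold (limma adjusted p = 1.50e-36). Only 39 of the tested genes (0.329%) had a larger change in either direction. The count behind it grew from 458 fragments in the 3 PBS libraries to 7431 in the 3 IGFBP-7 libraries.

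SNAI2 (ENSG00000019549), which shares Snail's DNA-binding fingers and is a neural crest and fibroblast factor, was at 420, 402 and 461 normalized counts in PBS and at 1526, 1363 and 1512 with IGFBP-7. The lowest treated library was still well above the highest control. From 428 ± 30.6 to 1467 ± 90.1, its log2 change was 1.78 ± 0.09, or 3.43-fold (limma adjusted p = 1.99e-23). A larger change was seen in 499 tested genes (4.20%).

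TWIST1 (ENSG00000122691), a bHLH factor needed for cranial mesoderm and limb mesenchyme, was at 695, 632 and 606 normalized counts in PBS and at 440, 431 and 461 with IGFBP-7. All 3 treated libraries were lower than all 3 controls, and they were also closer to each other. The mean fell from 644 ± 45.9 to 444 ± 15.3, a log2 change of -0.54 ± 0.10 or a 1.45-fold fall (limma adjusted p = 1.19e-05). That size is not unusual among the tested genes, of which 29.99% changed more.

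TWIST2 (ENSG00000233608), also called Dermo-1 and active in dermal and osteoblast precursors, was at 1591, 1444 and 1681 normalized counts in PBS and at 2220, 1916 and 2058 with IGFBP-7. The groups were separate but near each other, with the highest control at 1681 and the lowest treated library at 1916. Its mean rose from 1572 ± 120 to 2065 ± 152, a log2 change of 0.39 ± 0.07 or 1.31-fold (limma adjusted p = 4.71e-06). Among tested genes, 42.3% changed more.

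ZEB1 (ENSG00000148516), the repressor held in a double-negative loop with the miR-200 family in epithelial cells, was at 1786, 2015 and 1927 normalized counts in PBS and at 2336, 2458 and 2237 with IGFBP-7. The gap between the groups, 2015 against 2237, was about as wide as the range within either. Its mean rose from 1909 ± 116 to 2343 ± 110, a log2 change of 0.30 ± 0.07 or 1.23-fold (limma adjusted p = 0.000128). This is the smallest change of the 6, and 56.1% of tested genes changed more. Few tested genes had changes near 0 (10.2% within 0.1 of 0), so such shares hold only for the genes in the table.

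ZEB2 (ENSG00000169554), also known as SIP1 for its binding to SMAD proteins, was at 3001, 3091 and 3488 normalized counts in PBS and at 1824, 1824 and 1815 with IGFBP-7. The treated libraries were nearly identical, while the controls spread upward. It fell from 3194 ± 259 to 1821 ± 4.91, a log2 change of -0.81 ± 0.06 or a 1.75-fold fall (limma adjusted p = 9.39e-16). Among tested genes, 17.4% changed more. The coefficient of variation over the 3 IGFBP-7 libraries was 0.269%, below the 2.30% that counting error alone would give for its fragments, so that SD understates the error.

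Scaling bears on the smaller changes. Dividing by the recovered library total in place of the deposited size factors shifted the median of all genes by -0.14 on the log2 scale. With that scaling the log2 changes were 3.78 for SNAI1, 1.63 for SNAI2, -0.68 for TWIST1 and -0.95 for ZEB2. The TWIST2 change then was 0.25 (limma adjusted p = 0.00184) and the ZEB1 change 0.15 (0.0376), both smaller by more than 1.5 times but still higher with IGFBP-7. Over the same genes 20.5% were then called higher and 35.2% lower. Measured against the median of all tested genes, TWIST2 was at 0.37 and ZEB1 at 0.27, a distance that rescaling of whole libraries leaves nearly as it is by construction. With quantile normalization, which does not shift all genes alike, these distances were 0.31 and 0.22.

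**Figure D2:**
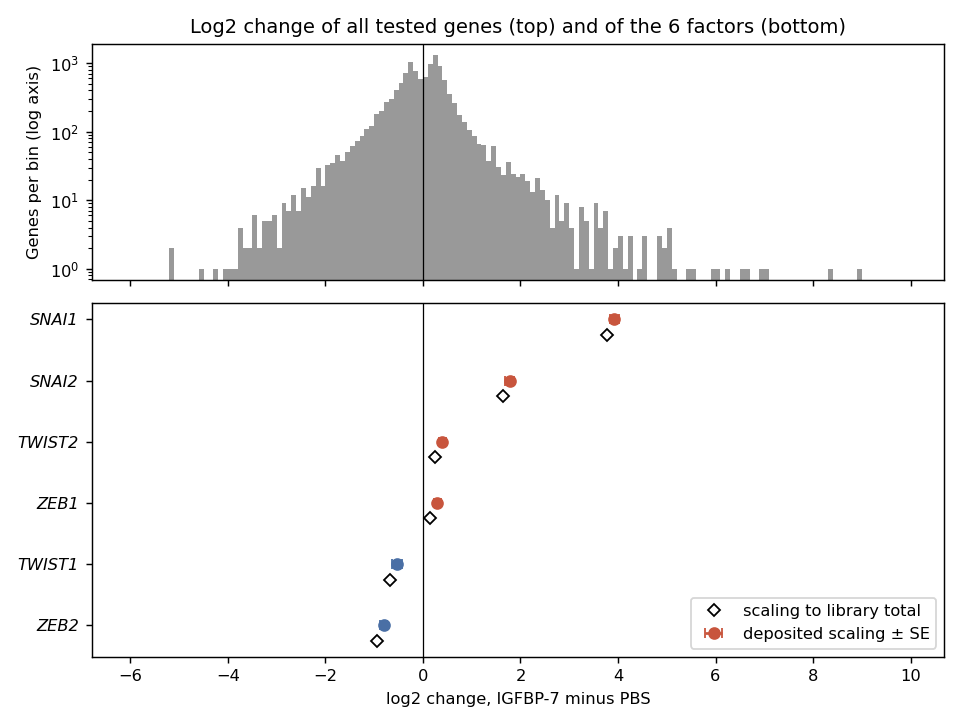
Distribution of log2 changes (IGFBP-7 minus PBS) over all 11872 tested genes (top, gene number on a log axis) and the 6 factors (bottom) with deposited scaling (filled points, bars SE; red higher, blue lower) and with scaling to the library total (open diamonds). SNAI1 at 3.93 lies in the far right tail, and the shift between the scalings leaves each factor on its side of 0.

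The paralogs within each pair took opposite or unequal paths. The log2 ratio of SNAI1 to SNAI2 normalized counts went from -1.45 ± 0.229 to 0.70 ± 0.0457 (SD, n = 3 and 3). SNAI1 thus had 0.369 times the counts of SNAI2 in PBS and 1.63 times with IGFBP-7. The log2 ratio of ZEB1 to ZEB2 went from -0.74 ± 0.120 to 0.36 ± 0.0646, as ZEB1 rose while ZEB2 fell.

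The log2 ratio of TWIST1 to TWIST2 went from -1.28 ± 0.162 to -2.21 ± 0.105. The differences in log2 ratio were 2.15 for the SNAI pair, -0.93 for the TWIST pair and 1.10 for the ZEB pair. None of the 3 ratios overlapped between the groups. The two-sided exact permutation p was 0.1 for each, which is the smallest that 3 against 3 libraries allow and cannot reach the threshold (Benjamini-Hochberg adjusted p = 0.1 over the 3 pairs). These ratios use counts of genes of different lengths, so their change between groups is the measured quantity and their value in 1 group is not a ratio of molecules.

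**Figure D3:**
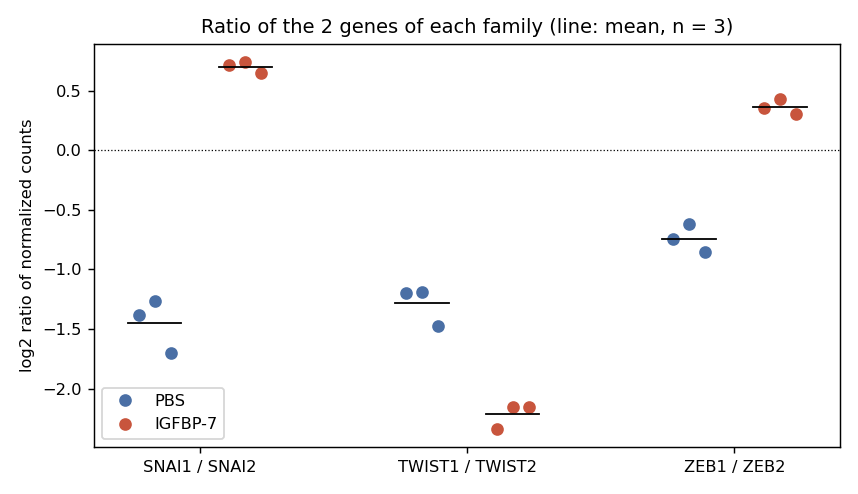
Log2 ratio of normalized counts for SNAI1 over SNAI2, TWIST1 over TWIST2 and ZEB1 over ZEB2 in each of the 3 PBS (blue) and 3 IGFBP-7 (red) libraries, with group means as lines. The SNAI ratio moved from -1.45 to 0.70 and the ZEB ratio from -0.74 to 0.36, and the TWIST ratio from -1.28 to -2.21. The place of 0 depends on gene length, so the movement between groups is what the plot shows.

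Levels were compared between genes only after division by transcript length, as normalized counts per kb of the longest annotated transcript (GENCODE 29). TWIST2 led in PBS at 1120 ± 85.4 per kb. TWIST1, ZEB2 and ZEB1 followed at 387 ± 27.6, 333 ± 27.1 and 305 ± 18.5 per kb, and the libraries of TWIST1 and ZEB2, and of ZEB2 and ZEB1, overlapped in this order. SNAI2 at 151 ± 10.8 and SNAI1 at 92.6 ± 8.03 per kb were the lowest, each separate from its neighbour.

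With IGFBP-7 the order was TWIST2 at 1471 ± 109 and SNAI1 at 1414 ± 69.6 per kb, whose libraries overlapped, then SNAI2 at 519 ± 31.8, ZEB1 at 374 ± 17.6, TWIST1 at 266 ± 9.21 and ZEB2 at 190.03 ± 0.512 per kb, each separate from the next. SNAI1 thus moved from the last place to share the first. Its share of the summed level per kb of the 6 genes went from 3.89% to 33.4%. The SNAI pair together held 10.2 ± 0.280% of that sum in PBS and 45.6 ± 0.272% with IGFBP-7. The share of the TWIST pair went from 63.1 ± 1.71% to 41.0 ± 0.715%, and that of the ZEB pair from 26.7 ± 1.58% to 13.3 ± 0.946%. These are shares of a sum that grew. The TWIST pair itself was at 1506 ± 85.5 per kb in PBS and 1737 ± 111 with IGFBP-7, and the ZEB pair at 638 ± 37.1 and 564 ± 18.1.

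The sum itself was 2388 ± 93.2 per kb in PBS and 4234 ± 199 with IGFBP-7, a ratio of 1.77. Which transcripts the cells use is not measured by gene counts, and the lengths matter most for ZEB2, whose longest transcript is 9.583 kb and whose merged exons span 25.058 kb. With merged exon lengths, an alternative added after the data were seen, SNAI1 at 1414 per kb stood above TWIST2 at 1099 with IGFBP-7, ZEB2 was at 127 per kb in PBS, overlapping SNAI2, and the SNAI1 share went from 5.40% to 40.3%. ZEB1 then lay above ZEB2 in both groups, at 221 against 127 per kb in PBS and at 271 against 72.7 with IGFBP-7, whereas with the longest transcripts their PBS libraries overlapped. With merged exon lengths the ZEB pair together was at 348 ± 19.2 per kb in PBS and 344 ± 12.9 with IGFBP-7. SNAI2 lay above SNAI1 in PBS and SNAI1 above SNAI2 with IGFBP-7 under both lengths.

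**Figure D4:**
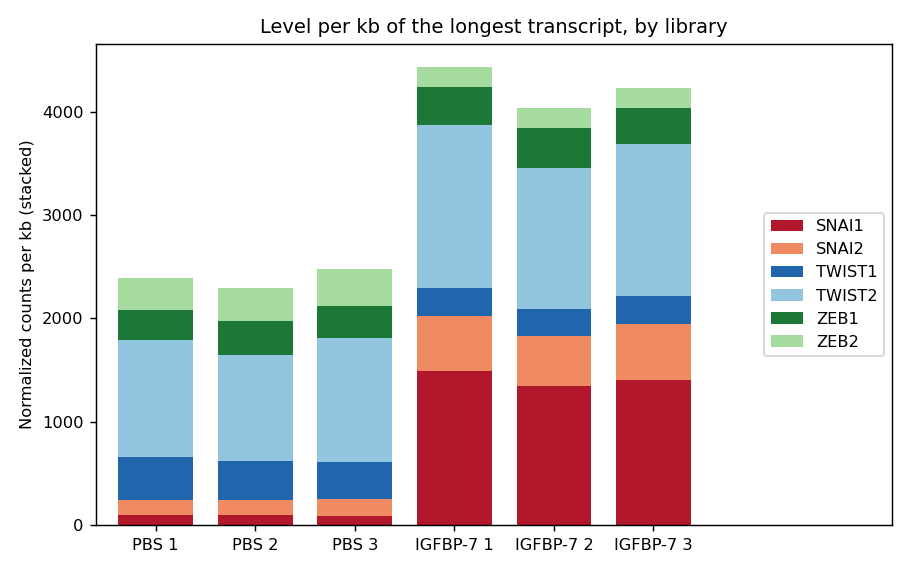
Normalized counts per kb of the longest transcript, stacked for the 6 factors, with 1 bar for each of the 3 PBS and 3 IGFBP-7 libraries. TWIST2 is the widest band in PBS at a mean of 1120, and the SNAI1 band grows from 92.6 to 1414, beside TWIST2 at 1471.

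Near-identical sequence did not connect the 6 genes: no stretch of 50 bases was shared between the annotated transcripts of any pair. Antisense genes do overlap 3 of them. ZEB1-AS1 shares 366 bases (4.23%) with ZEB1 exons, ZEB2-AS1 shares 1299 bases (5.18%) with ZEB2 exons, and an antisense gene of TWIST1 shares 141 bases (6.94%). Whether the authors counted by strand is not stated, although the library kit kept strand. ZEB1-AS1 was at 202 ± 5.88 and 190 ± 18.5 normalized counts in PBS and IGFBP-7 (log2 change -0.09, limma adjusted p = 0.644). ZEB2-AS1 was at 28.9 ± 10.2 and 18.3 ± 12.2 (-0.77, adjusted p = 0.150). Both are small beside their partners at 1909 and 3194 in PBS.

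The genes whose pattern over the 6 libraries lay nearest to each factor were found by the distance between log2 profiles, each centred on its own mean, over 7904 protein-coding genes whose mean reached 100 normalized counts. Nearest to SNAI1 were DSP, which encodes the desmosomal plaque protein desmoplakin (348 ± 19.9 to 5364 ± 541, distance 0.260), the matrix adhesion gene TGFBI (25920 ± 889 to 342288 ± 12399, distance 0.342) and the Notch-responsive repressor gene HES1 (121 ± 38.3 to 1609 ± 17.9, distance 0.575). Nearest to SNAI2 were the trehalase gene TREH, the tropomyosin gene TPM1 and the LIM domain gene FHL3, at distances of 0.144, 0.155 and 0.156. For ZEB2 they were FMN1, ST3GAL6 and CASP1, at 0.0795 to 0.0966. TWIST1, TWIST2 and ZEB1 had small changes that very many genes share, and their nearest were MINK1, POLR3GL and SLC41A3 for TWIST1, ESM1, SFXN4 and TMEM151B for TWIST2 and LZIC, NUCKS1 and SLC25A46 for ZEB1, all at distances under 0.1. Likeness over 6 libraries in 2 groups is mostly likeness in the size of 1 change.

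TWIST proteins act as dimers with the E proteins, and the ID proteins, which lack a DNA-binding part, take those partners away. Of 9 partner and ID genes, 6 were tested, of which 5 rose and 1 fell. Over all tested genes 31.3% rose and 29.2% fell. The median log2 change of the 6 was 0.40, against 0.02 over all tested genes. The E protein gene TCF4 rose from 1613 ± 75.3 to 4425 ± 304 (log2 change 1.45) and TCF3 by 0.22. ID1 rose from 593 ± 32.0 to 1368 ± 79.3 (1.20), ID2 by 0.45 and ID3 by 0.34. With scaling to the library total only TCF4 and ID1 of these 5 stayed past the threshold (TCF3, ID2 and ID3 lost it), and the median was 0.26. HAND2, a bHLH partner of heart and limb, fell from 107 ± 17.8 to 70.8 ± 12.1 (-0.59, limma adjusted p = 0.0240), a call that was lost without PBS replicate 2, PBS replicate 3 or IGFBP-7 replicate 3 (adjusted p = 0.0800 to 0.106). The E protein gene TCF12 was not in the table.

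Corepressors link the SNAI and ZEB proteins to chromatin, and 8 of 22 listed genes were in the table. Of these 5 were higher and 3 lower, where 60.6% of all tested genes passed in either direction. The median log2 change of the 8 was 0.31 (0.17 when scaled to the library total), against 0.02 (-0.12) over all tested genes. The largest change was in AJUBA, a LIM protein that bridges Snail to its corepressors, which fell from 8321 ± 82.9 to 2605 ± 165 normalized counts (-1.68), opposite in direction to SNAI1. LIMD1, of the same LIM family, fell by 0.53 and the DNA methyltransferase gene DNMT1 by 0.30. The histone demethylase gene KDM1A (LSD1), a direct Snail partner, rose by 0.37, HDAC2 by 0.36 and WDR77 by 0.44. The other 14, among them CTBP1, CTBP2 and EZH2, were not analysed here.

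Snail protein is short-lived, and its level depends on kinases and ubiquitin ligases as well as on transcript. Of 14 tested genes of this turnover machinery, 6 rose, 7 fell and 1 did not pass, against 60.6% of all tested genes passing. The median log2 change of these 14 was 0.01, and scaling to the library total made it -0.13. The kinase gene LATS2, whose product retains Snail in the nucleus, fell by 0.75, the kinase gene PRKD1, whose product phosphorylates Snail, by 0.49 and the ligase gene FBXL14 by 0.42. The ligase gene FBXO45 rose by 0.47, the signalosome gene COPS2 by 0.37 and the ligase gene SIAH1 by 0.35. GSK3B, BTRC and FBXL5 were not analysed here. Protein was not measured.

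Signals that control SNAI and ZEB transcription include TGF-beta through SMAD3 and SMAD4, and 10 of 22 such genes were in the table. Of these 6 were higher and 3 lower, against 31.3% higher and 29.2% lower over all tested genes. The median log2 change of the 10 was 0.36 (0.22 when scaled to the library total). SMAD7, the inhibitory SMAD that TGF-beta itself induces, rose from 400.5 ± 23.5 to 4005 ± 261 (3.32), and the SMAD corepressor gene SKIL from 869 ± 59.1 to 5610 ± 486 (2.69). SMAD3 fell from 10740 ± 250 to 4767 ± 179 (-1.17) and the receptor gene TGFBR2 by 0.42. LEF1, a nuclear effector of Wnt signals, rose by 0.96 and the early growth response gene EGR1 fell by 0.37.

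Of 20 other factors with a described part in the transition 11 were tested, 4 higher, 1 lower and 6 not passing. The share passing over all tested genes was 60.6%. The median log2 change of the 11 was 0.38 (0.24 when scaled to the library total). Without a low-value filter 16 listed genes entered, and their median was 0.30 with limma and 0.22 with DESeq2. SOX4, a factor known to act in TGF-beta driven transitions, rose from 479 ± 42.5 to 2610 ± 212 (2.44), between SNAI2 and SNAI1 in size. RUNX1 rose by 1.06 and FOXC2 by 0.71, and RUNX2 fell by 0.34. PRRX1, a mesenchymal homeobox gene, was at 17.3 ± 7.36 and 29.5 ± 5.01 normalized counts (0.80, limma adjusted p = 0.111), and SNAI3, the third SNAI paralog, at 30.6 ± 9.996 and 38.9 ± 6.16 (0.38, adjusted p = 0.368). The rise of SNAI1 and SNAI2 was therefore not seen as a call in SNAI3, whose level was low. Its antisense gene SNAI3-AS1 was at 157 and 178 normalized counts in PBS and IGFBP-7, so SNAI3 is uncertain where strand was not used. HMGA2 was not analysed here.

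Among 28 mesenchymal genes, 26 were tested, 21 higher, 4 lower and 1 not passing, at a median log2 change of 1.07 (0.93 when scaled to the library total). Over all tested genes 31.3% were higher and 29.2% lower. The fibroblast protease gene FAP rose from 352 ± 79.0 to 2376 ± 53.5 (2.78) and fibronectin, FN1, by 2.40. N-cadherin, CDH2, whose gain marks the cadherin switch, rose from 6018 ± 54.4 to 12759 ± 18.6 (1.08). AXL, a receptor kinase gene, fell by 0.94, the hyaluronan receptor gene CD44 by 0.28 and THY1 by 0.27. Vimentin was not in the table.

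**Figure D5:**
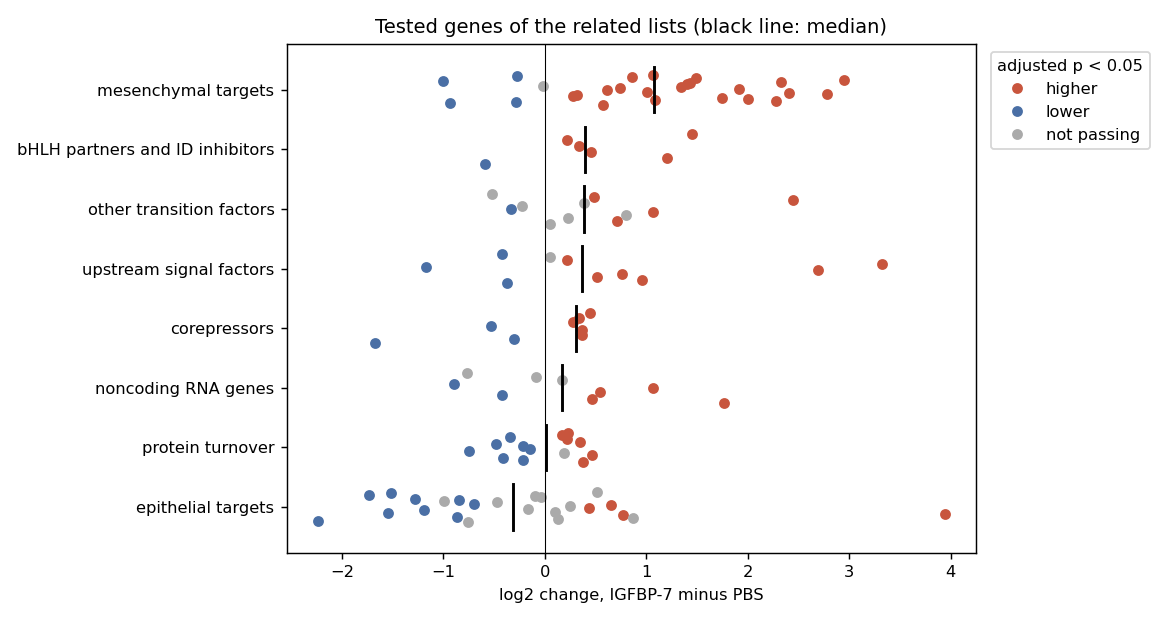
Log2 change of each tested gene of 8 related lists, with the median of each list as a black line and calls in colour. The medians are 1.07 for mesenchymal genes and -0.32 for epithelial targets (-0.45 to -0.13 over the alternatives, some with other genes tested). DSP at 3.94 stands apart from the other epithelial genes.

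Epithelial genes that the SNAI and ZEB proteins are known to repress ranged from undetected to abundant in these cells. A mean of 100 normalized counts was reached by 16 of the listed genes. CDH1, the classical target, was listed at 0 in 5 libraries and at 2.04 normalized counts (2 fragments) in 1 IGFBP-7 library, under the floor of 3 fragments, so neither loss nor gain could be detected. Of 40 listed genes 35 were in the table and 24 were tested. Of these 9 were lower and 4 higher, against 29.2% lower and 31.3% higher over all tested genes, and 11 did not pass. The median log2 change of the 24 was -0.32. This median moved by more than 1.5 times without single libraries. The low-value filter was applied anew each time, so genes near it could enter or leave. The median was -0.13 without PBS replicate 2 (25 genes) and -0.18 without PBS replicate 3 (26 genes). It was -0.19 without IGFBP-7 replicate 2 (23 genes) and -0.16 without IGFBP-7 replicate 3 (24 genes). Other gene sets also entered with edgeR (-0.14, 28 genes), DESeq2 (-0.18, 35 genes) and a filter at a mean of 100 (-0.13, 16 genes). The sign of the median held in all 15 alternatives. The tight junction gene CLDN1 fell from 262 ± 38 to 54.8 ± 5.42 (-2.23), and OCLN, which encodes occludin, from 935 ± 126 to 384 ± 28.4 (-1.27). The plakophilin genes PKP2 and PKP3, of the desmosomal plaque, had log2 changes of -1.74 and -1.52, both lower. The mucin gene MUC1 fell by 0.84.

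The 4 that rose were DSP (3.94, limma adjusted p = 4.23e-41), the desmosomal cadherin gene DSG2 (0.77) and the simple keratin genes KRT8 (0.66) and KRT18 (0.43). Desmosomal genes thus went both ways, DSP and DSG2 up and PKP2 and PKP3 down. The epithelial marker genes CDH1, EPCAM and KRT19 were at means of at most 6.13 normalized counts in either group, while KRT8 and KRT18 were abundant already in PBS, at 14472 ± 234 and 12162 ± 161. KRT7 and CLDN4 lay between, at 400 and 144 in PBS and at 470 and 158 with IGFBP-7. The part of other cells in these levels was not tested.

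The E-box CAGGTG, or CACCTG on the other strand, was counted in the 300-base windows from 250 bases before to 50 bases after RefSeq transcription starts (GRCh38.p14). It was present in 20.6% of all 35116 windows, in 17 of 29 windows (58.6%) of 21 epithelial target genes and in 4 of 23 windows (17.4%) of mesenchymal genes. The epithelial list was drawn from genes described as E-box targets, so its share is a description of that choice. Of the factors, TWIST2, ZEB1 and ZEB2 had windows, 9 in all, and 2 (22.2%) held the E-box, both of them at ZEB1. The sequences are shown, 5′ to 3′ on the strand of the gene with the E-box in capitals, for ZEB1 itself and for targets that fell (OCLN, MUC1) and rose (DSP, DSG2).
ZEB1, chr10:31318348-31318377, plus strand: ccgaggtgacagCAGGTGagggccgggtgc
ZEB1, chr10:31319119-31319148, plus strand: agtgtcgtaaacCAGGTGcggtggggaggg
OCLN, chr5:69492502-69492531, plus strand: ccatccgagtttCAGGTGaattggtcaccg
OCLN, chr5:69492645-69492674, plus strand: tctaggacgcagCAGGTGggactcgcggcg
MUC1, chr1:155192980-155193009, minus strand: gcggggttttgtCACCTGtcacctgctccg
DSP, chr6:7541481-7541510, plus strand: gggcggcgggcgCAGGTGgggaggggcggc
DSP, chr6:7541574-7541603, plus strand: gaagaaaccggcCAGGTGtggcctaggcgc
DSG2, chr18:31497933-31497962, plus strand: acgtcacggtccCAGGTGcgagtgcgagcg
The MUC1 stretch holds a second CACCTG 1 base after the first. DSP, which rose by 3.94, holds the same 6 bases as OCLN, which fell.

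Of the 24 tested epithelial genes 13 had a promoter window. Of the 9 with the E-box in it, OCLN, MUC1 and ELF3 fell, DSP and DSG2 rose and CLDN7, PATJ, JUP and SPINT1 did not pass. ELF3 was low, at 18.7 ± 8.58 normalized counts in PBS and 6.40 ± 4.84 with IGFBP-7. Its groups overlapped (limma adjusted p = 0.0419). Of the 4 without the E-box, CLDN1 and GRHL1 fell, KRT8 rose and CLDN4 did not pass. Tested genes without a promoter window are left out of what follows. The 2281 with an E-box window had a median log2 change of -0.05, with 28.2% higher and 32.7% lower. The 6904 whose windows held no E-box had 0.07, with 34.0% higher and 28.1% lower. No test was made of these shares. A match is a run of letters and not a bound site.

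Noncoding genes tied to these factors were few. Of 9 tested, 4 rose and 2 fell, against 31.3% and 29.2% of all tested genes. DNM3OS, host of the miR-199 and miR-214 cluster and a known TWIST1 target, rose from 59.6 ± 7.64 to 206 ± 39.2 (1.76). A link to TWIST1, which fell, or to TWIST2, which rose, was not tested. The miR-34a host gene MIR34AHG rose by 1.07 and MEG3 by 0.54, and NEAT1 fell by 0.90. The host genes of miR-200c and miR-205, which target ZEB1 and ZEB2, were not analysed here. Several named genes have an antisense gene that was itself counted, among them LIMD1, THY1, CD44, HAND2, ELF3 and SNAI3. Their values are uncertain where strand was not used. LIMD1-AS1 was at 2092 and ELF3-AS1 at 1034 normalized counts in PBS, beside 4135 for LIMD1 and 18.7 for ELF3.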

How the data were processed

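The authors deposited 1 table of normalized counts (unit: signal), which per the submitters' processing notes was made with STAR, featureCounts (Subread) and DESeq2. Not given in the sources used here: versions, genome build, annotation and strand setting. The library kit was directional, per the labels' protocols. In all 6 columns, 100% of values were whole multiples of a step (within 0.01 of a step), which gave back reads; nearly all were even, so 2 reads were taken as 1 fragment. Log2(value + 1) was tested with limma 3.58.1 (trend) for genes with a mean of at least 10, Benjamini-Hochberg adjusted over 11872 genes, with fold changes on that scale and no covariate. On recovered reads edgeR 4.0.16 called 3607 genes higher and 3528 lower, and DESeq2 1.42.0 called 3516 and 3403, against 3721 and 3471 here. The fit was tested on simulated data with few changed genes and the same dispersion set for every gene. That test does not bear on the share of genes called here. Replicates correlated at 0.987 to 0.989 within groups and 0.952 to 0.954 between, and differed by more than sampling noise. Lengths came from GENCODE 29 and promoters from RefSeq (GRCh38.p14); SNAI1, SNAI2 and TWIST1 have no promoter entry. Named genes were the 3 largest calls without overlap in each direction of each list and a few fixed genes (such as CDH1, CDH2 and TCF3); OCLN, MUC1, ELF3, GRHL1 and KRT18 and genes not passing were added after their values were seen, and some named by the rule are not reported here. The members and lists were chosen with earlier results of these data known.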

Additional observations from a re-analysis of the deposited data

How the results depend on the processing

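Over 15 alternatives (pseudocount, low-value filter, scaling, count tests, replicate block and leaving out each library) all 6 factors kept their direction and stayed past the threshold, and the highest adjusted p was 0.0376, for ZEB1 with scaling to the library total. Leaving out single libraries gave log2 changes of 3.85 to 3.98 for SNAI1, 1.73 to 1.83 for SNAI2, -0.58 to -0.48 for TWIST1, 0.33 to 0.45 for TWIST2, 0.25 to 0.34 for ZEB1 and -0.85 to -0.74 for ZEB2. Scaling to the library total left 2435 genes higher of 3721, 2 partner and ID genes higher of 5, 3 turnover genes higher of 6 and 2 other transition factors lower in place of 1. The single lower partner gene, HAND2, lost its call without a filter and with quantile normalization, and the number of lower partner genes over left-out libraries was 0 to 1. A filter at a mean of 100 left 5 genes of that list, and HAND2 was then not tested. With DESeq2, 1 noncoding gene was lower in place of 2 (MALAT1 was lost). The cause was not tested. Same-numbered libraries had deviations correlated at -0.045, 0.012 and -0.049, and 0 of 6 libraries correlated best with their own number. No shared deviation by number was seen, but 3 libraries per group cannot decide whether the numbers mark a pairing. With the number as a replicate block, the log2 changes were 3.93, 1.78, -0.54, 0.39, 0.30 and -0.81 for SNAI1, SNAI2, TWIST1, TWIST2, ZEB1 and ZEB2, and 3715 genes were higher and 3462 lower. No call of the 6 changed. Sign flips of the paired ratio differences gave an exact p of 0.25 for each pair, the smallest that 3 pairs allow.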

Other observations

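The log2 changes of all tested genes were thinned out near 0: 1211 genes (10.2%) lay within 0.1 of 0, 1723 (14.5%) between 0.1 and 0.2 in size and 2361 (19.9%) between 0.2 and 0.3. The shares of genes called, and of genes that changed more than a factor, hold only for the genes in this table. Genes such as VIM, CTBP1 and TCF12 were absent from it. The 5 markers of the leukocyte list in the table had summed normalized counts of 2820 to 2930 (PBS) and 1395 to 1630 (IGFBP-7), nearly all of it CD68, with PTPRC, CD163 and CD3E at means under 6. The 7 endothelial markers summed to 324 to 365 and 435 to 504. Of the 7 hepatocyte markers in the table SERPINA1 alone was tested, at 252 and 227 normalized counts.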
